A study of Mus musculus with 6 samples.

Results

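The core autophagy machinery and a set of lysosome genes were examined as 35 named genes in whole mouse prostates that differed in stromal p62. The genes were chosen by symbol, from autophagy initiation, lipid conjugation, the LC3 family, lysosomal membrane proteins and enzymes, and the TFEB family of factors. All 35 were among the 24421 rows of the count table, and all 35 passed the filter on low counts that left 13762 genes for testing. The knockout group was 3 prostates of C57BL/6 mice aged 52 weeks with the p62FSP1KO genotype, p62 f/f alleles together with FSP1-Cre, and the labels place the loss of p62 in the stroma. The control group was 3 prostates of p62 f/f mice of the same strain and age with no Cre named, which the labels also call wild type. FSP1 is the product of S100a4, a gene active in fibroblasts and also in some blood-derived cells, so the deletion reaches a part of a mixed organ. Whether each library came from a separate mouse is not stated, and p-values cover the spread among these 6 samples, which may be technical.

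Autophagy wraps cytoplasm in a double membrane that closes into an autophagosome and fuses with the lysosome. The ULK kinase complex starts the process, a Beclin 1 complex makes the lipid PI3P, and a ubiquitin-like relay joins LC3 and GABARAP proteins to the growing membrane. p62, encoded by Sqstm1, is a receptor that carries ubiquitinated cargo to LC3 and is itself degraded in the lysosome. TFEB, TFE3 and MITF are related transcription factors that raise lysosomal and autophagy genes through short E-box sequences, and they are held in the cytoplasm when nutrients are plentiful.

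Total counts were 14761703, 24186958 and 26910053 in knockout 1, 2 and 3 and 20011908, 16052785 and 12826463 in control 1, 2 and 3, and the 35 genes took 0.389% to 0.502% of each. Counts are given below as CPM, counts per 1000000 after scaling by TMM factors. Prostate secretory genes differed between the groups and also among libraries of a group. The summed level of Sbp, Sbpl and Spink1, ventral-type secretory genes, was 3.03 to 91.7 CPM in knockout libraries, against 49129 to 164610 CPM in control libraries. Each of these genes separated every knockout from every control, with adjusted p of 0.00832 to 0.0148 (edgeR's quasi-likelihood test). The summed level of Tgm4, Pbsn and 9530053A07Rik was 266210 to 322310 CPM in knockout libraries and 169570 and 234430 CPM in control 1 and 2, but 697 CPM in control 3. Control 3 correlated with the knockout libraries at Spearman's rho of 0.840 to 0.873 across genes, and knockout 1 with control 1 and 2 at 0.914 and 0.915. Sqstm1 itself was at 541, 387 and 462 CPM in knockout 1, 2 and 3, against 360, 409 and 295 CPM in control 1, 2 and 3, with an adjusted p of 0.355 (edgeR's quasi-likelihood test), so whole-organ RNA did not check the deletion.

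The difference between groups was under 2-fold for 34 of the 35 genes. The remaining gene, the cysteine protease gene Ctsl (cathepsin L), passed a false discovery rate of 0.05, and it was lower in knockouts. That is 2.86% of the 35 genes, against a background of 5.07% of all genes tested that passed in either direction and 4.66% that passed and were lower; 0 of the 35 passed and were higher, against 0.414% of all genes. By comparison 14.7% of all genes tested differed by 2-fold or more. The median log2 fold change, knockout over control, was -0.10 over the 35 genes and 0.03 over all genes tested. Groups did not overlap for 12 of the 35 genes (34.3%), 5 higher and 7 lower in knockouts, against 32.4% of all genes tested, 14.1% higher and 18.3% lower. An unadjusted p under 0.05 was found for 8 genes (22.9%), against 22.1% of all genes. Of these 8, 3 were higher in knockouts (background 8.62%) and 5 lower (background 13.5%). The shares with no overlap and with an unadjusted p under 0.05 were near the background. Positive log2 fold changes were found for 13 of the 35 genes (37.1%), against 52.4% of all genes, and a difference of 2-fold or more for 1 (2.86%), against the 14.7% given above. In bulk tissue, fewer cells of a type and less RNA per cell cannot be told apart.

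**Figure D1:**
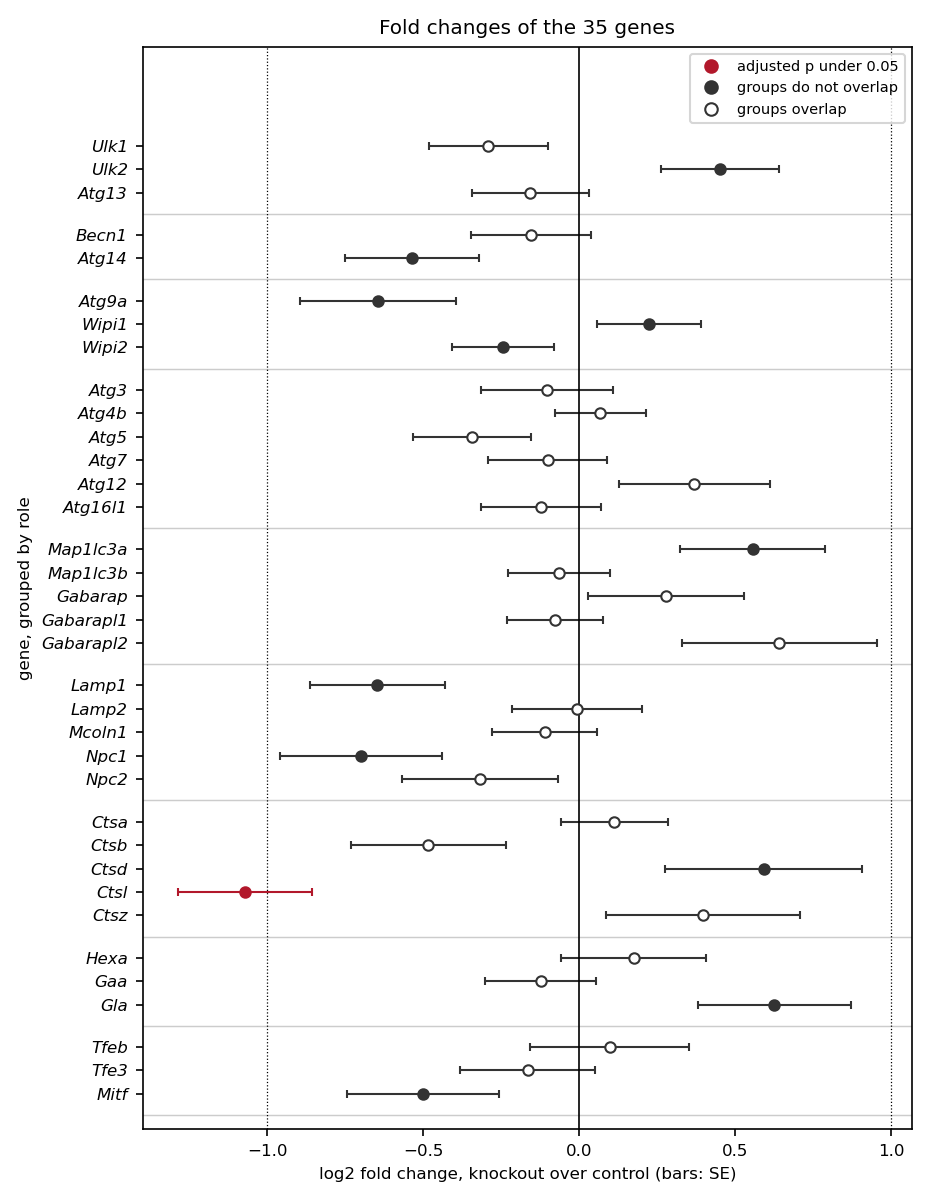
Log2 fold change, knockout over control, of each of the 35 genes with its standard error (bars), grouped by role from initiation at the top to the MiT/TFE factors at the bottom; dotted lines mark 2-fold. Ctsl, in red, lies beyond 2-fold at -1.07, and the other 34 points lie between the dotted lines.

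Promoter sequence is shown for the genes whose windows hold the E-box that TFEB-family factors read, because the 35 genes include both factors and genes known as their targets. Windows of 300 bases, from 250 before to 50 after each RefSeq start (GRCm38.p6), were matched for 29 of the 35 genes. Both strands were searched for the 8-base palindrome TCACGTGA, for a 10-base palindrome that adds a G before it and a C after it, and for the 6-base E-box CACGTG that lies inside both. TCACGTGA was found for 5 of the 29 genes (17.2%), against 2.15% of the 10439 tested genes with a window. CACGTG was found for 11 of 29 (37.9%), against 11.4%, and the 10-base palindrome for 0 of 29, against 0.786%. A match is a description of letters and not of binding. The 6 copies of TCACGTGA before a RefSeq start are shown in capitals, each in 30 bases read 5′ to 3′ on the strand of the gene, with positions counted from the RefSeq start.
Atg3, position -72, chr16:45158746-45158775, plus strand: ggagagtcgagTCACGTGAggccttaggtg
Ctsa, position -13, chr2:164833743-164833772, plus strand: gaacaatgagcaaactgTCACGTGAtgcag
Ctsd, position -99, chr7:142387908-142387937, minus strand: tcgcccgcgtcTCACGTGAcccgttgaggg
Gla, position -228, chrX:134601215-134601244, minus strand: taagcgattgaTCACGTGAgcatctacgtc
Gla, position -195, chrX:134601182-134601211, minus strand: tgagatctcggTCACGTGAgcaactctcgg
Mcoln1, position -46, chr8:3500462-3500491, plus strand: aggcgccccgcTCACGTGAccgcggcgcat
The RefSeq start lies inside the outermost GENCODE M21 start by 900 bases for Ctsa, 211 for Ctsd, 120 for Gla, 62 for Mcoln1 and 44 for Atg3. The stretches shown for Ctsa, Ctsd and Mcoln1 overlap a GENCODE exon, so they are not sequence before the gene in that annotation. Ctsa holds a further copy at position 5. The 5 genes with TCACGTGA had log2 fold changes of -0.11 to 0.62 and 0 of 5 passed the test. Cln3, a gene of the wider lists below that did pass, holds TCACGTGA at position -122 within the 10-base palindrome. That window lies inside the gene in GENCODE M21, and the Cln3 window at the outermost start held no match. Flcn, Vmp1 and Gnptab, which also passed, held no match in any window, and no window was matched for Hgsnat. These genes were looked up after their values were seen.

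Lamp1 and Ctsl are shown because they had the largest negative values among those of the 35 genes with an E-box in their window. The 250 bases before the Lamp1 start hold 4 copies of CACGTG, in capitals, at positions -61, -45, -28 and -15, and none is within TCACGTGA.
Lamp1, chr8:13158911-13159160, plus strand: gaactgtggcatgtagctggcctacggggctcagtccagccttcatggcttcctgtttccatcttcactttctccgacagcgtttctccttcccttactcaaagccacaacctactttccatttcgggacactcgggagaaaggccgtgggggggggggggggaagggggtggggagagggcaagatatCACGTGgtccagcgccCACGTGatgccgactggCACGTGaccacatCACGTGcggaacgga
The Ctsl window holds 1 CACGTG at position -236 and 1 copy of TGATGNAA, the core of the element read by ATF4 with C/EBP partners, at position -153 on the opposite strand. TGATGNAA was found for 1 of the 29 genes (3.45%), against 2.84% of tested genes. The RefSeq start used for Ctsl lies 370 bases inside the gene's 5′ end in GENCODE M21, so this window is not the region before its outermost start, and the CACGTG stretch overlaps a GENCODE exon.
Ctsl, CACGTG, chr13:64370739-64370768, minus strand: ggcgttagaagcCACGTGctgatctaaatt
Ctsl, TGATGNAA, chr13:64370655-64370684, minus strand: tcttcttccacTTACATCAgcattgttgtg

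**Figure D2:**
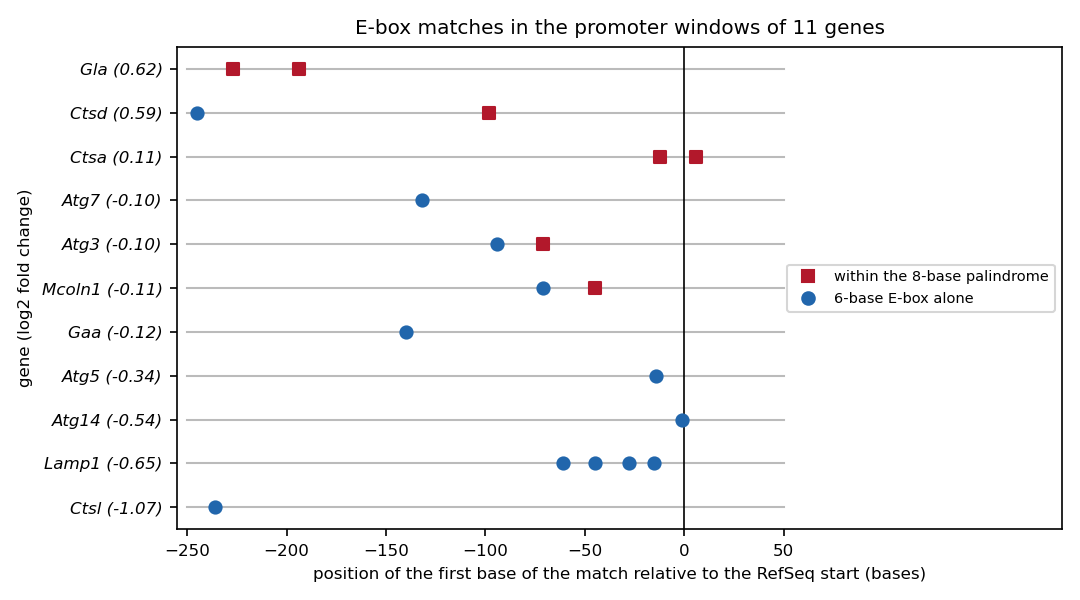
Position of each E-box in the promoter windows of the 11 genes that hold one, in bases from the RefSeq start, with genes ordered by log2 fold change (in brackets); squares are E-boxes inside the 8-base palindrome and circles are others. Gla and Ctsd, at the top, hold the palindrome, while Lamp1 holds 4 E-boxes outside it.

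Among the genes that start autophagy, the kinase and scaffold genes differed little between groups. Ulk2, which encodes a kinase closely related to ULK1, was at 76.0, 71.7 and 71.8 CPM in knockout 1, 2 and 3, against 61.2, 58.2 and 41.0 CPM in control 1, 2 and 3. The groups did not overlap and control 3 was the lowest library, with a log2 fold change of 0.45 ± 0.19 (SE) and an adjusted p of 0.217 (edgeR). Ulk1 averaged 39.2 ± 7.59 CPM in knockouts and 48.1 ± 4.80 CPM in controls (SD, n = 3 each). Atg13, the partner that links the ULK kinases to the complex, averaged 103 ± 18.3 CPM in knockouts and 115 ± 10.7 CPM in controls (SD, n = 3 each). Both overlapped between groups.

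The genes of the Beclin 1 lipid kinase complex had negative values. Becn1 averaged 140.2 ± 25.5 CPM in knockouts and 156 ± 15.4 CPM in controls (SD, n = 3 each), with overlap. Atg14, the subunit that directs the complex to autophagy, was at 10.4, 14.4 and 14.8 CPM in knockout 1, 2 and 3, against 20.3, 19.4 and 17.7 CPM in control 1, 2 and 3. All 3 knockout values lay under all 3 control values (log2 fold change -0.54 ± 0.21 SE; adjusted p = 0.202, edgeR). Knockout 1 was the lowest library.

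The genes for membrane supply and PI3P binding separated the groups in both directions, each by under 2-fold. Atg9a, a lipid scramblase on the vesicles that seed the membrane, was at 17.3, 26.0 and 31.7 CPM in knockout 1, 2 and 3, against 36.5, 34.7 and 46.1 CPM in control 1, 2 and 3. The lowest value was in knockout 1 and the highest in control 3 (log2 fold change -0.64 ± 0.25 SE; adjusted p = 0.193, edgeR). Wipi2, which binds PI3P and recruits the conjugation complex, was at 68.2, 80.3 and 87.7 CPM in knockouts, against 89.1, 99.1 and 91.4 CPM in controls. Its relative Wipi1 was at 41.4, 34.6 and 35.2 CPM in knockouts, against 32.4, 28.4 and 34.4 CPM in controls. The gap between the groups was narrow for both (log2 fold changes of -0.24 and 0.22; adjusted p = 0.407 and 0.447, edgeR).

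None of the 6 conjugation genes separated the groups or had an unadjusted p under 0.05. Atg7, the E1-like enzyme that activates LC3 and ATG12, had the narrowest relative spread of the 35 genes among knockouts, at 23.0 ± 0.50 CPM, against 24.7 ± 4.35 CPM in controls (SD, n = 3 each). Atg3, the E2-like enzyme for LC3, averaged 51.6 ± 9.97 CPM in knockouts and 55.4 ± 9.74 CPM in controls. Atg4b, the protease that trims LC3, averaged 46.3 ± 3.73 CPM in knockouts and 44.1 ± 1.19 CPM in controls. Atg5, Atg12 and Atg16l1, which together form the ligase-like complex, had log2 fold changes of -0.34, 0.37 and -0.12. Atg12 was lowest in control 3, at 34.2 CPM, against 53.7 to 76.4 CPM in knockouts and 52.9 and 57.2 CPM in control 1 and 2. Adjusted p-values of the 6 genes were 0.322 to 0.808 (edgeR).

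The LC3 and GABARAP genes encode the small proteins that are joined to the membrane and bind p62. Map1lc3a was at 117, 74.1 and 71.2 CPM in knockout 1, 2 and 3, against 67.5, 55.6 and 55.5 CPM in control 1, 2 and 3. The groups did not overlap, and knockout 1 stood above the other 5 libraries (log2 fold change 0.56 ± 0.23 SE; adjusted p = 0.215, edgeR). Without knockout 1 the log2 fold change of Map1lc3a was 0.29. Map1lc3b, the form most used as an autophagosome marker, was at 160.3, 159 and 143 CPM in knockouts, against 170, 146 and 167 CPM in controls, with overlap. Gabarap was at 406, 248 and 236 CPM in knockouts, against 254, 243 and 237 CPM in controls. Without knockout 1 its log2 fold change was -0.01, against 0.28 with all libraries. Gabarapl1 was at 90.5, 99.1 and 89.2 CPM in knockouts, against 98.0, 90.4 and 106 CPM in controls, and Gabarapl2 at 52.0, 23.5 and 38.0 CPM in knockouts, against 20.7, 30.9 and 21.0 CPM in controls. Knockout 1 was thus the highest library for Map1lc3a, Gabarap and Gabarapl2 and not for Map1lc3b or Gabarapl1. The vacuolar ATPase list also had its highest median in knockout 1, at 0.35 on the log2 scale relative to the mean of the 6 libraries, against -0.11 to 0.06 in the other 5, and its part in these values was not tested.

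Levels of different genes were compared per kilobase of annotated exon (GENCODE M21), and shares within a library do not depend on the scaling. The length joined the exons of all transcripts of a gene. It was 6489 bases for Ctsl and 7517 for Map1lc3b, against 2351 for Ctsd and 1181 for Map1lc3a. A gene with many exon bases that its main transcript lacks is placed too low, so ranks and shares between genes are approximate. Gabarap made up the largest share of the LC3 and GABARAP family in every library, at 47.8% to 53.9% in knockouts and 49.6% to 51.4% in controls. Map1lc3a made up 24.3%, 22.6% and 22.5% in knockout 1, 2 and 3, against 20.8%, 18.3% and 18.1% in control 1, 2 and 3. Map1lc3a was thus a larger part of the family in each knockout than in each control. Its CPM already separated the groups and the shares of a library have a fixed total, so this is not a separate result. Map1lc3b made up 5.22% to 7.60% in knockouts and 7.58% to 8.56% in controls, with overlap.

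**Figure D3:**
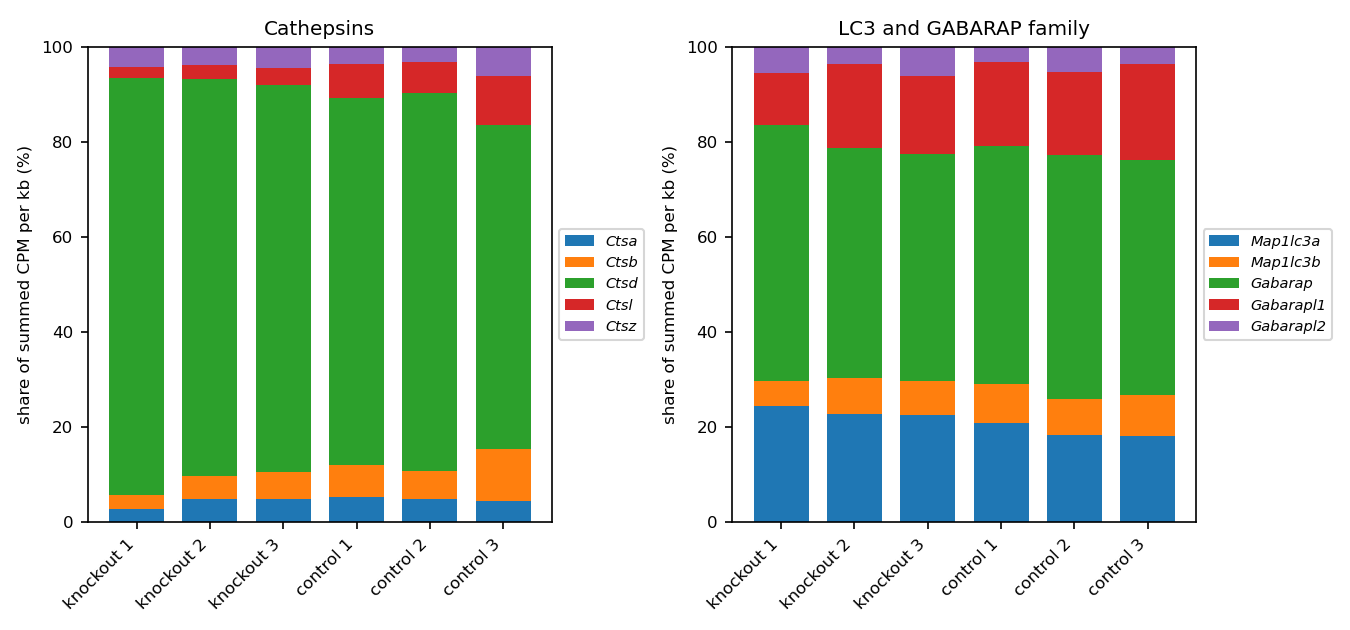
Share of each gene in the summed CPM per kilobase of the 5 cathepsin genes (left) and of the LC3 and GABARAP family (right) in each library, stacked to 100%. Ctsl takes 2.28% to 3.67% of the cathepsins in knockouts and 6.58% to 10.3% in controls.

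The 5 genes of the lysosomal membrane and cholesterol export had negative log2 fold changes, although that of Lamp2, at -0.01, turned positive under other scalings. Lamp1, a major glycoprotein of the lysosomal membrane (chromosome 8, 13159161 to 13175338, plus strand, GRCm38), was at 308, 371 and 326 CPM in knockout 1, 2 and 3, against 594, 435 and 545 CPM in control 1, 2 and 3. All 3 knockout values lay under all 3 control values, with a log2 fold change of -0.65 ± 0.22 (SE) and an adjusted p of 0.146 (edgeR). DESeq2 called it, at an adjusted p of 0.0224, but DESeq2 also called 11.8% of all genes tested, against 5.07% with edgeR. Its partner Lamp2 was at 361 ± 42.4 CPM in knockouts and 363 ± 49.9 CPM in controls (SD, n = 3 each). Mcoln1, a calcium channel that acts upstream of TFEB, averaged 28.3 ± 2.83 CPM in knockouts and 30.5 ± 2.64 CPM in controls.

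The genes for cholesterol export from the lysosome gave 1 separated and 1 overlapping pair of groups. Npc1, the membrane transporter, was at 10.4, 16.8 and 17.0 CPM in knockout 1, 2 and 3, against 22.9, 20.3 and 28.8 CPM in control 1, 2 and 3 (log2 fold change -0.70 ± 0.26 SE; adjusted p = 0.178, edgeR). The lowest library was knockout 1 and the highest was control 3. Npc2, the soluble protein that hands cholesterol to NPC1, averaged 313 ± 89.5 CPM in knockouts and 390.0 ± 29.6 CPM in controls (SD, n = 3 each).

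Ctsl fell in knockouts and was the 1 gene of the 35 past the threshold. The gene (chromosome 13, 64359337 to 64370890, minus strand) encodes cathepsin L, a lysosomal cysteine endoprotease. It was at 123, 93.5 and 121 CPM in knockout 1, 2 and 3, against 226, 195 and 287 CPM in control 1, 2 and 3. The highest knockout lay well under the lowest control, with a log2 fold change of -1.07 ± 0.22 (SE) and an adjusted p of 0.0321 (edgeR's quasi-likelihood test, Benjamini-Hochberg). With any 1 library left out the log2 fold change was -1.19 to -0.91 and the adjusted p 0.0516 to 0.143, so the call was lost in each of these 6 fits. It was kept in all 10 other fits at the same threshold, which changed the scaling, the count filter or the tool or left out control 3 and knockout 1 together. Without those 2 libraries the log2 fold change was -0.98 (adjusted p = 0.015, edgeR). Ctsl was highest in control 3, where the ventral-type secretory genes were also highest. The summed level of 14 macrophage markers, a cell type rich in cathepsins, was 264 to 389 CPM in knockouts and 192 to 344 CPM in controls. Of these markers 0 of 14 passed the threshold and 0 of 14 were at 0 counts in all libraries. An unadjusted p under 0.05 was found for 2 of 14 (edgeR), against 22.1% of all genes tested. With no overlap 3 of 14 were higher in knockouts (21.4%, against 14.1%). Adgre1, Csf1r, Cd68, Cd14, Lyz2, Mrc1, Cd163 and Itgam were highest in control 3, as was Ctsl. C1qa, C1qb, C1qc, Fcgr1, Aif1 and Mertk were highest in a knockout. Mertk was lowest in control 3, at 31.5 CPM, against 55.8 to 118 CPM in knockouts. The summed level of 5 adipocyte markers was 4.44 to 56.9 CPM in knockouts and 25.0 and 23.0 CPM in control 1 and 2, but 957 CPM in control 3. The summed level of 6 smooth muscle markers was 2285 to 3493 CPM in knockouts and 1027 to 2382 CPM in controls. Of these 6 markers, 5 were higher in knockouts with no overlap, against 14.1% of all genes tested. The summed level of 3 basal epithelial markers was 72.1 to 123 CPM in knockouts and 47.2 to 76.2 CPM in controls. None of the adipocyte, smooth muscle or basal markers passed the test (edgeR), although 3 of 5 adipocyte, 5 of 6 smooth muscle and 2 of 3 basal markers had an unadjusted p under 0.05. Over all genes tested 22.1% had such a p. The part of the secretory genes and of these cell types in the fall of Ctsl was not tested.

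None of the other 4 cathepsin genes passed the test, and their values ran in both directions. Ctsd, the main aspartic protease of the lysosome and the most abundant of the 35 genes per kilobase, was at 1717, 963 and 972 CPM in knockout 1, 2 and 3, against 879, 858 and 688 CPM in control 1, 2 and 3. The groups did not overlap and knockout 1 stood apart (log2 fold change 0.59 ± 0.32 SE; adjusted p = 0.309, edgeR), and without knockout 1 the log2 fold change was 0.26. Ctsb, a cysteine protease related to cathepsin L, was at 145, 143 and 174 CPM in knockouts, against 200.02, 159 and 288 CPM in controls. Its groups overlapped and control 3 was the highest library, as for Ctsl, with a log2 fold change of -0.48 that stayed negative in all 17 alternatives (adjusted p = 0.293, edgeR). Ctsz and Ctsa, both carboxypeptidases, had log2 fold changes of 0.40 and 0.11. As a share of the 5 cathepsin genes per kilobase, Ctsl was 2.28%, 2.95% and 3.67% in knockout 1, 2 and 3, against 7.21%, 6.58% and 10.3% in control 1, 2 and 3. The share of Ctsd was 87.9%, 83.7% and 81.5% in knockouts, against 77.3%, 79.7% and 68.3% in controls. Both shares separated the groups, in opposite directions. The shares of a library add up to a fixed total, so a larger share of Ctsd lowers the others, and the directions are not separate results.

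**Figure D4:**
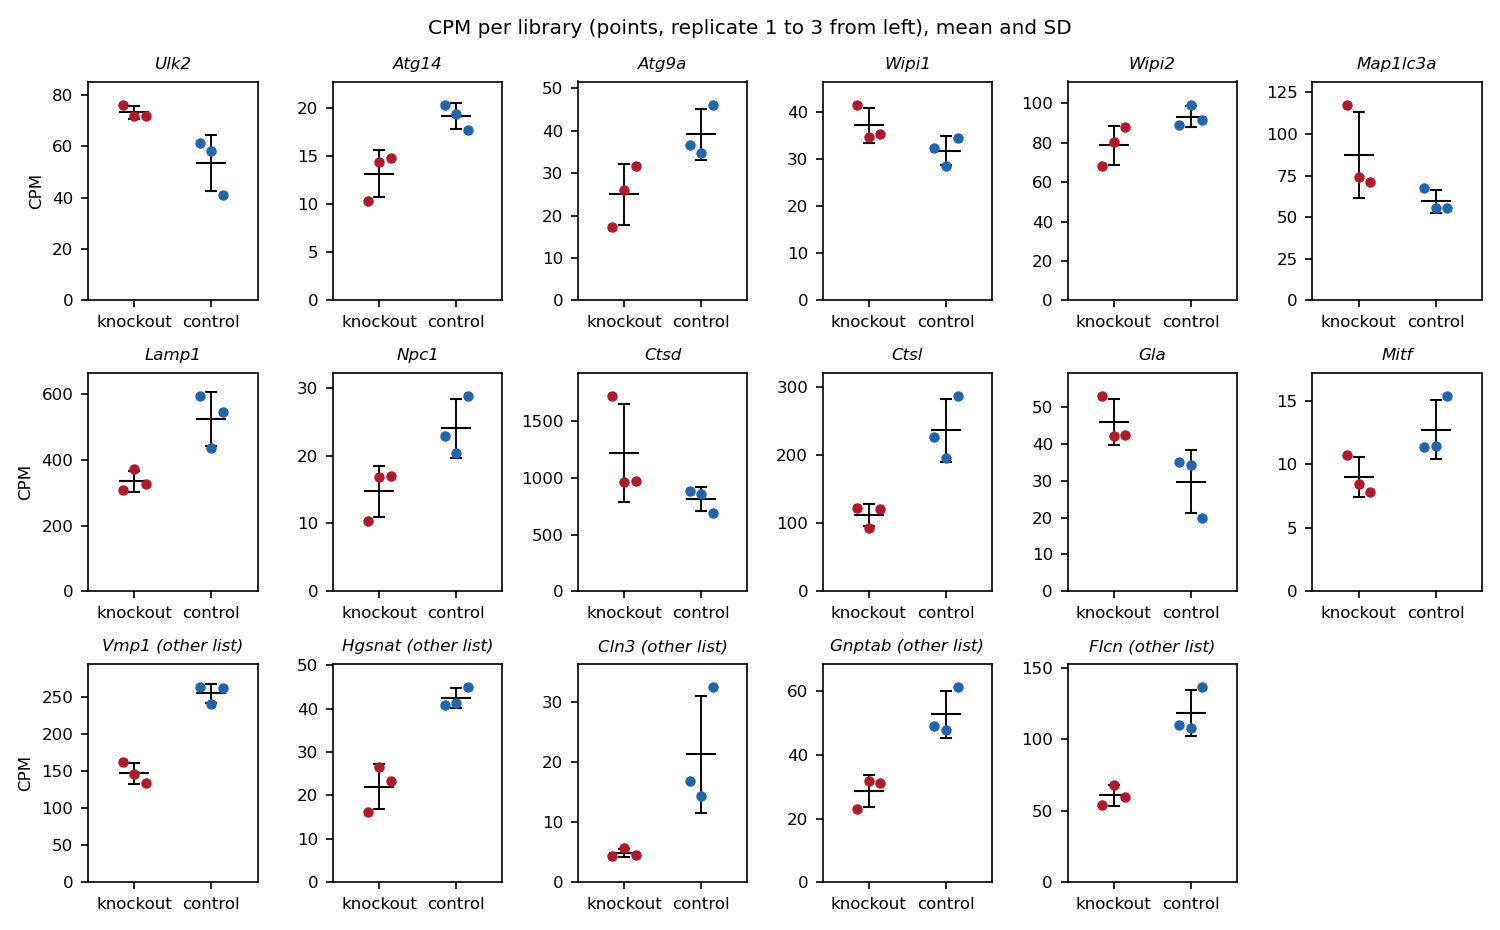
CPM in each library (points, replicates 1 to 3 from left to right, knockouts left in red and controls right in blue) with the group mean and SD, for the 12 of the 35 genes whose groups did not overlap (upper rows) and for 5 genes of the wider lists that passed the test (bottom row). Ctsl and the bottom row show the wider gaps, while Wipi1 and Wipi2 nearly touch.

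Of the 3 glycosidase genes, Gla separated the groups. Gla, which encodes alpha-galactosidase A and holds the palindrome at 2 positions before its RefSeq start, was at 52.9, 42.2 and 42.4 CPM in knockout 1, 2 and 3, against 34.99, 34.2 and 19.9 CPM in control 1, 2 and 3. Control 3 was the lowest library and knockout 1 the highest (log2 fold change 0.62 ± 0.25 SE; adjusted p = 0.194, edgeR). Hexa, a subunit of beta-hexosaminidase, averaged 133.8 ± 33.0 CPM in knockouts and 118 ± 21.6 CPM in controls (SD, n = 3 each). Gaa, which breaks down glycogen, averaged 109 ± 13.7 CPM in knockouts and 118 ± 13.8 CPM in controls. Both overlapped.

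The TFEB-family factors were among the least abundant of the 35 genes per kilobase. Mitf was at 10.7, 8.46 and 7.82 CPM in knockout 1, 2 and 3, against 11.4, 11.4 and 15.4 CPM in control 1, 2 and 3. The groups did not overlap, by a narrow gap (log2 fold change -0.50 ± 0.24 SE; adjusted p = 0.272, edgeR). Tfeb averaged 7.84 ± 1.47 CPM in knockouts and 7.32 ± 0.97 CPM in controls, and Tfe3 averaged 22.6 ± 5.04 CPM in knockouts and 25.4 ± 2.17 CPM in controls (SD, n = 3 each). RNA level does not report where these factors are in the cell.

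**Figure D5:**
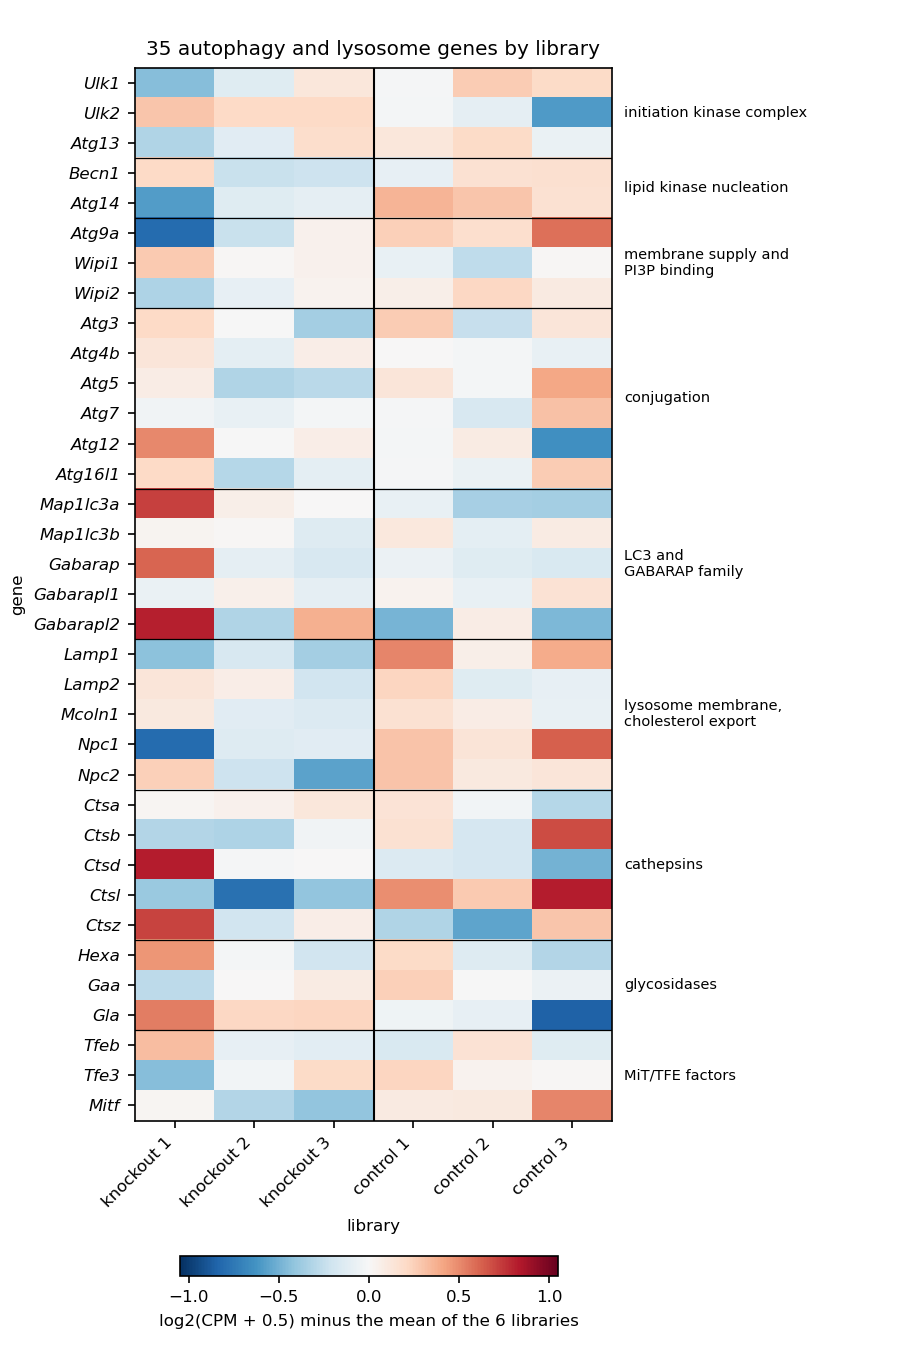
Level of each of the 35 genes (rows, grouped by role) in each library (columns, knockouts left of the line), as log2(CPM + 0.5) minus the mean of the 6 libraries. Knockout 1 is the highest library for 13 genes and the lowest for 9, and Ctsl shows the clearest step between the groups.

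Single libraries set much of the spread. Knockout 1 was the highest of the 6 libraries for 13 of the 35 genes and the lowest for 9, while knockout 2 and 3 were the highest for 0. Control 3 was the highest for 9 genes and the lowest for 7. The median coefficient of variation of the 35 genes was 17.8% among knockouts and 13.2% among controls. Per kilobase, levels ran over a wide range. Ctsd averaged 518 CPM per kilobase in knockouts and 344 in controls, Lamp1 125 in knockouts and 196 in controls, and Gabarap 161 in knockouts and 133 in controls. Lamp1 and Gabarap, next to each other in this order, overlapped in knockouts, at 115 to 139 for Lamp1 and 128 to 220.3 for Gabarap, and did not in controls, at 162 to 222 for Lamp1 and 128 to 138 for Gabarap. At the low end, Tfeb averaged 1.38 CPM per kilobase in knockouts and 1.29 in controls, and Npc1 1.30 in knockouts and 2.12 in controls.

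Further genes of the pathway were read from the same fit, as 5 lists of 116 genes of which 112 were tested. In these lists 5 genes fell and 0 rose (edgeR), which is 4.46% of those tested, near the background of 4.66% that were lower among all genes. An unadjusted p under 0.05 was found for 29 (25.9%, against 22.1% of all genes), of which 24 were lower in knockouts (21.4%, against 13.5%). Groups did not overlap for 42 (37.5%, against 32.4%), 30 lower and 12 higher in knockouts. Over all genes tested 18.3% were lower and 14.1% higher with no overlap. All 5 genes that fell separated the groups. Of 27 other autophagy genes 1 fell, Vmp1, which encodes an endoplasmic reticulum scramblase needed for autophagosome growth. It was at 162, 146 and 133.6 CPM in knockout 1, 2 and 3, against 263, 239.6 and 261 CPM in control 1, 2 and 3 (log2 fold change -0.79 ± 0.17 SE; adjusted p = 0.0423, edgeR). Of 8 genes that control TFEB 1 fell, Flcn, whose product folliculin acts on Rag GTPases and so on where TFEB sits. Flcn was at 54.0, 68.3 and 60.0 CPM in knockouts, against 110, 108 and 137 CPM in controls (log2 fold change -0.96 ± 0.18 SE; adjusted p = 0.0242, edgeR). Both genes showed tight groups with a gap between them.

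Of 22 other genes of the lysosomal membrane and enzyme sorting 2 fell. Cln3, a lysosomal membrane protein gene known from Batten disease, was at 4.43, 5.72 and 4.52 CPM in knockout 1, 2 and 3, against 16.9, 14.4 and 32.5 CPM in control 1, 2 and 3. Its log2 fold change of -2.11 ± 0.35 (SE) was beyond that of Ctsl, with an adjusted p of 0.0158 (edgeR) and with control 3 the highest library. Gnptab, which encodes the enzyme that starts the mannose 6-phosphate tag on lysosomal enzymes, was at 22.9, 31.9 and 31.0 CPM in knockouts, against 49.1, 47.8 and 61.2 CPM in controls (adjusted p = 0.0457, edgeR). Of 39 other lysosomal hydrolase genes 1 fell, Hgsnat, an enzyme of heparan sulfate breakdown. Hgsnat was at 16.3, 26.5 and 23.2 CPM in knockouts, against 40.8, 41.2 and 44.96 CPM in controls (adjusted p = 0.0478, edgeR).

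The calls of these 5 genes were not equally firm. With 1 library left out, Cln3 was called in 3 of 6 fits, Vmp1 in 1 and Flcn, Gnptab and Hgsnat in 0. In 10 other fits at the same threshold, Cln3 and Flcn were called in 10, Vmp1 in 9, Hgsnat in 6 and Gnptab in 5. The log2 fold change of each stayed negative in all 17 alternatives tried, from -2.33 to -1.61 for Cln3 and from -1.09 to -0.76 for Flcn. None of 16 vacuolar ATPase subunits, which acidify the lysosome, passed the test. The smallest p-values there were those of Atp6v0e and Atp6v0a2, with log2 fold changes of 0.61 and -0.60 and an adjusted p of 0.175 and 0.176 (edgeR). Atp6v0c, its proton-carrying ring subunit, was listed at 0 counts in all 6 libraries, while those 16 subunits passed the filter on low counts. The reason was not tested, and the 0 counts do not show that the gene was silent.

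Exons of 13 of the 35 genes overlap those of another gene in GENCODE M21, and the strand setting of the counting is not given in the sources used here. Ctsl overlaps an antisense gene and a processed pseudogene, and Lamp1 overlaps Grtp1 on the opposite strand, which had 483 counts in all against 48513 for Lamp1. Atg9a overlaps Ankzf1 on the opposite strand, which had 4219 counts against 3650 for Atg9a. Ctsz overlaps Nelfcd on the opposite strand, which had 2824 counts against 3504 for Ctsz. The values of Atg9a and Ctsz are thus less certain. To a lesser degree this holds for Map1lc3b, Ctsa and Ctsb, which also overlap genes of the opposite strand. Zcchc14 had 6017 counts against 17902 for Map1lc3b, Pltp 3116 against 12364 for Ctsa, and Fdft1 3729 against 20725 for Ctsb. Npc1 overlaps the protein-coding gene Rmc1 on the opposite strand, which has no row in the count table, so its counts are not known. Of the 5 further genes, Cln3 overlaps Apobr on the opposite strand, which had 341 counts against 1362 for Cln3, so its values are the less certain. Gnptab overlaps an antisense gene and a lincRNA gene without rows in the count table, and Vmp1 overlaps Mir21a, which had 0 counts.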

How the data were processed

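RNA-seq of 6 whole prostates, 3 knockout and 3 control, was read from a table of counts per gene symbol deposited by the authors. STAR, DESeq2 and the mm10 build are listed without roles in the submitters' processing notes, and no source used here names the counter, the annotation or the strand setting. Counts were scaled by TMM, genes were kept by filterByExpr with a minimum count of 10, and knockout was compared with control by edgeR's quasi-likelihood test (edgeR 4.0.16, R 4.3.3), with Benjamini-Hochberg adjustment over 13762 genes and a false discovery rate of 0.05. Alternatives used limma 3.58.1, DESeq2 1.42.0, other scalings and filters, and left out libraries. The procedure was tested on simulated data. Total counts of 12826463 to 26910053 a library and 3 libraries a group limit the precision, with a common biological coefficient of variation of 32.5%. Names and exon lengths were matched to GENCODE M21, and promoter sequences are RefSeq's (GRCm38.p6). Named in full were genes past the threshold, those with an unadjusted p under 0.05 or with no overlap between groups, the LC3 and GABARAP family, and from each wider list the genes past the threshold or else the 2 with the smallest p. The members and lists were chosen with earlier results of these data known.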

Additional observations from a re-analysis of the deposited data

How the results depend on the processing

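Counts of genes past the threshold varied more than the fold changes. Over all genes 698 passed with edgeR, against 1618 with DESeq2, 1389 with limma-voom and quality weights, 1190 at a false discovery rate of 0.10 and 1229 without control 3 and knockout 1 together, when 1 of the 35 genes was called. Leaving out 1 library gave 255 to 551. Among the 35 genes 2 passed with DESeq2 (Ctsl and Lamp1), 0 passed in each fit that left out 1 library, and Ctsl alone passed in each other fit. The 5 calls in the wider lists became 3 with DESeq2 size factors, with upper-quartile factors or with library size alone, 4 with limma-voom and 2 with no count filter. They became 11 with DESeq2, 12 with quality weights, 8 at a false discovery rate of 0.10, 8 without the pair of libraries (7 of them lower) and 0 to 2 with 1 library left out. The shares of all genes tested that passed were 4.46% to 4.93% with those scalings, 4.85% with limma-voom and 3.66% with no count filter. They were 11.8% with DESeq2, 10.1% with quality weights, 8.65% at a false discovery rate of 0.10, 8.76% without the pair and 1.83% to 3.92% with 1 library left out. The median log2 fold change of the 35 genes was -0.24 with library size alone, which moved the median of all genes by -0.13, and -0.13 to -0.05 with 1 library left out. The log2 fold changes of 9 genes changed sign in at least 1 alternative, and the cause was not tested. With library size alone, Atg4b was at -0.064, Ctsa at -0.0079 and Tfeb at -0.033. With quality weights, Atg4b was at -0.0068, Hexa at -0.049 and Tfeb at -0.035. Lamp2 was at 0.0050 with DESeq2 size factors, 0.036 with upper-quartile factors, 0.0049 with DESeq2 and 0.0038 with limma-voom. Without control 3 and knockout 1, Atg4b was at -0.0014, Atg7 at 0.040, Atg12 at -0.00039, Gabarap at -0.042, Hexa at -0.15 and Tfeb at -0.11, while Lamp2 kept its sign at -0.12. With 1 library left out, the log2 fold change was -0.24 to 0.036 for Atg3, 0.023 to 0.13 for Atg4b, -0.21 to 0.047 for Atg7, 0.18 to 0.51 for Atg12, -0.015 to 0.42 for Gabarap, -0.077 to 0.11 for Lamp2, 0.0018 to 0.22 for Ctsa, -0.039 to 0.33 for Hexa and -0.063 to 0.21 for Tfeb. No paired analysis was possible because the labels give the groups no shared replicate numbers.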
